A study of Danio rerio with 8 samples.

Results

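The Kruppel-like factors are a family of transcription factors, and 10 zebrafish genes of that family were followed here in the retina after optic nerve crush: klf2a, klf2b, klf3, klf4, klf6a, klf7a, klf7b, klf9, klf11a and klf13. A probe was taken as a member when the RefSeq accession in the array design belonged to 1 of these symbols, which gave 22 of the 43601 probes tested and 10 of the 13143 genes that received a symbol. Of these genes, 2 had 1 probe, 4 had 2 probes and 4 had 3 probes, and every probe is reported. The RNA came from wild type adult zebrafish of 9 to 12 months whose sexes were not distinguished. The control group held 4 pools of right retinae from intact fish without an operation, and the crush group held 4 pools of right retinae taken 3 days after the right optic nerve was crushed. Each pool joined the retinae of 4 fish and was hybridised to its own Cy3 array. The control arrays shared 1 slide and the crush arrays shared a different one, hence slide and group cannot be told apart, and the control fish had no sham operation, so that the surgery and the nerve injury cannot be told apart either.

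Kruppel-like factors bind GC-rich and CACCC-box DNA through zinc fingers at the end of the protein, while the rest of the protein differs between members and recruits activators or corepressors. In retinal ganglion cells, the neurons whose axons form the optic nerve, mammalian Klf6 and Klf7 promote axon growth and Klf4 and Klf9 limit it. In zebrafish, klf6a and klf7a are needed for retinal ganglion cell axons to grow back after injury. Other members are known mainly outside the nervous system, such as Klf2 in the endothelial cells that line blood vessels.

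Levels are given as log2 signal, the quantile-normalised fluorescence of a probe on a log2 scale, with the SD over the 4 pools of a group. The log2 fold change is crush minus control, with its standard error (SE) from limma and a p-value adjusted by the Benjamini-Hochberg method over all probes tested. A probe passed at an adjusted p no greater than 0.05 if its fold change, up or down, reached 1.5 (0.585 in log2), and a single passing probe made its gene over-expressed or under-expressed. The brightest probe of a gene stands for it where a single value is given. Levels of different probes cannot be set against each other, so only changes were compared between genes. Across the arrays the median spot intensity was 153 to 194.5 over a background of 17 to 19, the scanner software marked 72.5% to 84.0% of the spots as well above background, and Pearson's r between arrays across probes was 0.979 to 0.991 within a group and 0.972 to 0.985 between groups. In RNA of a whole retina, fewer cells of a type and less RNA per cell cannot be told apart.

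After crush, 2 of the 10 genes were over-expressed, klf6a and klf7b, and 0 were under-expressed. Among all genes with a symbol, 3.02% had at least 1 probe that passed upwards, 1.19% at least 1 that passed downwards and 4.19% either. By probes, 3 of the 22 passed upwards and 0 downwards, where 1.89% and 0.862% of all probes did so and 2.75% passed in all. At an unadjusted p of 0.05 in limma, 3 of the 22 probes were lower and 3 were higher, against 9.35% and 10.1% of all probes. The brightest probes of 8 genes had a lower mean after crush and those of 2 a higher one, and their median log2 fold change was −0.16 where that of all genes with a symbol was 0.01. On 16 of the 22 probes every array was well above background, on 4 some arrays were, and on 2 none was.

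**Figure D1:**
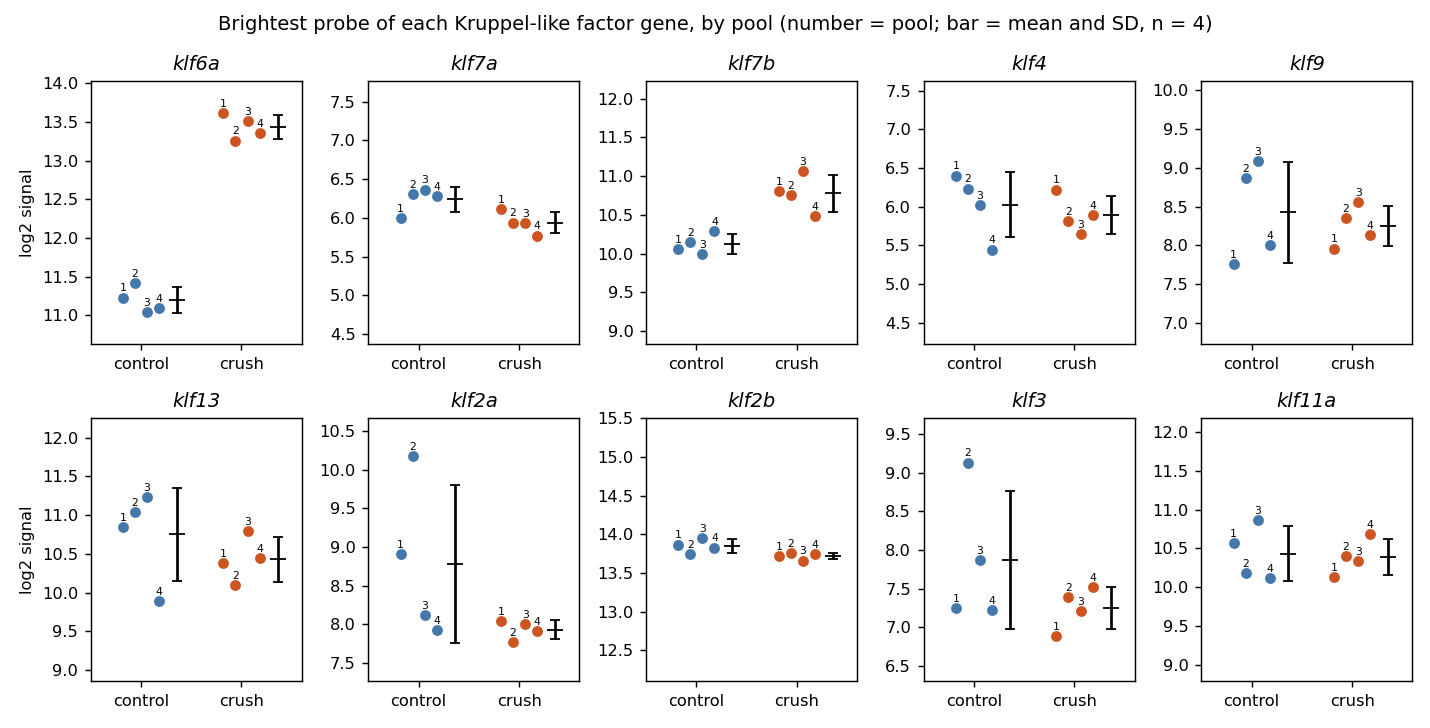
Log2 signal (vertical axis) of the brightest probe of each of the 10 Kruppel-like factor genes in the 4 control pools (blue) and 4 crush pools (orange), with the pool number at each point and bars for the mean and SD of each group. Every panel spans at least 3 log2 units but has its own origin. The crush pools lie above all control pools for klf6a and klf7b and overlap them for the other 8 genes, and control pool 2 stands above the others for klf2a and klf3.

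Of the members that promote axon growth, klf6a changed most. Its single probe, A_15_P119085, read 11.23, 11.42, 11.04 and 11.09 in control pools 1 to 4 and 13.61, 13.26, 13.51 and 13.35 in crush pools 1 to 4. The lowest crush pool was thus above the highest control pool, and the pools within a group lay close together. Control pools averaged 11.20 ± 0.17 and crush pools 13.43 ± 0.16 (log2 signal, SD, n = 4 each), and the log2 fold change was 2.24 (SE 0.13, adjusted p = 0.000323 from limma) and a fold change of 4.72 with a 95% interval of 3.86 to 5.77. The exact two-sided permutation test over the 70 ways to label 4 against 4 pools gave p = 0.0286, the smallest that this design allows. Among the brightest probes of the 13143 genes with a symbol, the rise of klf6a ranked 34. It was called under every alternative tried, with a log2 fold change of 2.18 to 2.36 and an adjusted p of 0.000112 to 0.0156.

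The gene klf7b is a zebrafish paralog of klf7a, both counterparts of mammalian Klf7, a factor of developing and growing neurons. Its brightest probe, A_15_P164136, read 10.06, 10.15, 9.99 and 10.29 in the control pools and 10.80, 10.75, 11.06 and 10.49 in the crush pools. The groups did not overlap, and crush pool 4 was the closest to the control pools. The mean went from 10.12 ± 0.13 to 10.78 ± 0.24 (log2 signal, SD, n = 4 each), a log2 fold change of 0.65 (SE 0.14, adjusted p = 0.0441 from limma) and a fold change of 1.57. This change was near both thresholds, and the call was lost without control pool 1, 2 or 3 and without crush pool 1, 2 or 3, with the adjusted p up to 0.127.

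The other probes of klf7b did not all move alike. The dimmest, A_15_P118986, read 5.08, 4.78, 4.85 and 5.05 in the control pools and 5.73, 6.01, 5.48 and 5.55 in the crush pools. Here too every crush pool was above every control pool, though only 2 of the 4 control arrays were well above background at this probe. The log2 fold change was 0.75 (SE 0.14, adjusted p = 0.03 from limma), but it passed in only 3 of the 16 alternatives. It was under the fold threshold at normexp offsets of 16 and 50 (0.54 and 0.34), in the deposited values (0.54) and with median scaling (0.58), and over the adjusted p threshold with the processed signal (0.0565), with the replicate block (0.101) and without any 1 pool other than control pool 4 (0.0528 to 0.0952). The remaining probe, A_15_P645706, read 6.68 to 7.15 in the control pools and 6.68 to 6.97 in the crush pools, all well above background, with a log2 fold change of −0.02 (95% interval −0.31 to 0.28). The mean of the probes gave 0.46 (adjusted p = 0.0374), under the fold threshold. The crush pools lay above the control pools without overlap on 3 member probes, that of klf6a and 2 of klf7b, and below them on 0, against 7.52% and 6.39% of all probes.

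For klf7a no probe passed. The brightest, A_15_P621812, read 5.998, 6.31, 6.37 and 6.28 in the control pools and 6.11, 5.94, 5.94 and 5.77 in the crush pools. Control pool 1 lay below crush pool 1 and the groups otherwise kept apart. On this probe the log2 fold change came to −0.30 (SE 0.12, 95% interval −0.58 to −0.02, adjusted p = 0.225 from limma). With the processed signal of the scanner software it was −0.59 (adjusted p = 0.0721), and at a normexp offset of 50 it was −0.17 (adjusted p = 0.222). The next probe, A_15_P648411, gave −0.46 (adjusted p = 0.228), with −0.85 and −0.24 in those settings. On A_15_P106818 no array was well above background, and no fold is given for it.

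The changes of the brightest probes of the paralogs klf7a and klf7b differed. The log2 difference between their brightest probes, klf7a minus klf7b, was 0.95 lower in the crush pools than in the control pools (−0.95, SE 0.14), with no overlap between the groups (exact two-sided permutation p = 0.0286, 0.0343 after Benjamini-Hochberg adjustment over the 6 pairs compared). The difference kept its call, at −1.23 to −0.86, in other settings. These were arrays scaled to their medians, the processed signal of the scanner software and the mean of the probes, dim ones included. The klf7b probe A_15_P645706, with a log2 fold change of −0.02, was not compared with klf7a by itself. Probe sequences were not used here, so whether a probe of 1 paralog also binds the transcript of the other was not tested.

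**Figure D2:**
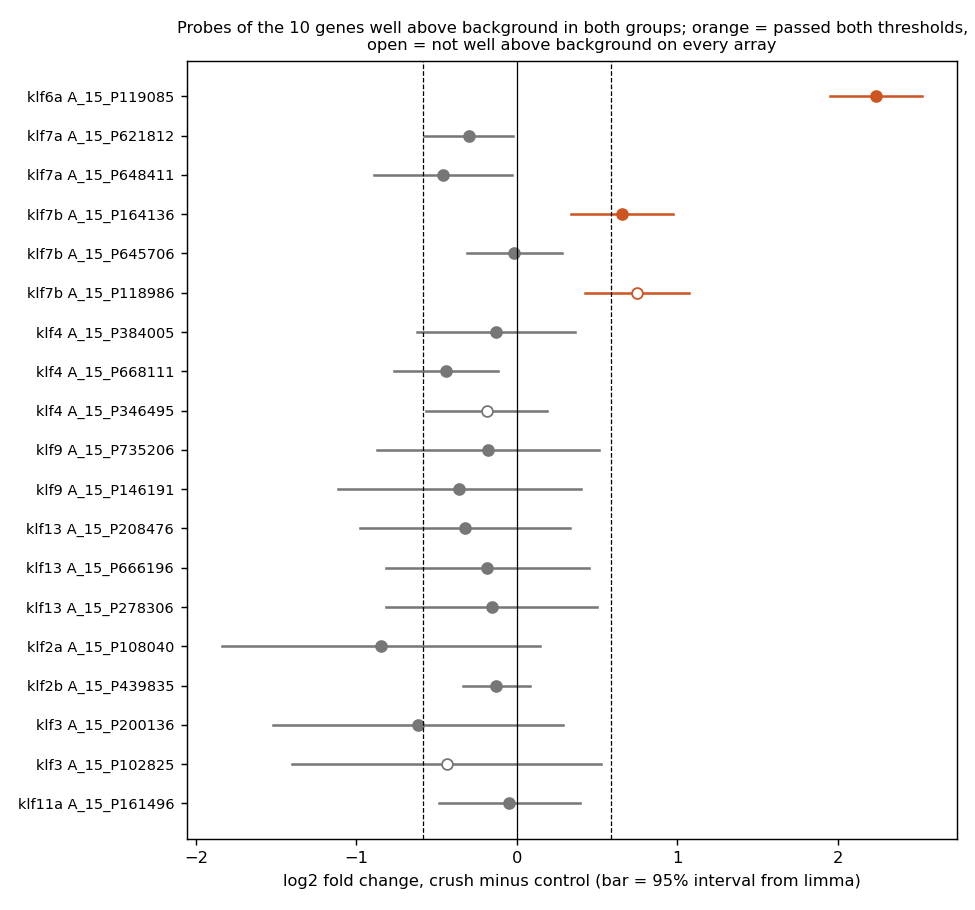
Log2 fold change, crush minus control (horizontal axis), for the 19 of the 22 probes that were well above background on at least 1 array of each group, with 95% intervals from limma over 4 control and 4 crush pools. Dashed lines mark a 1.5-fold change, orange marks the 3 probes that passed both thresholds (1 of klf6a and 2 of klf7b), and open points mark probes not well above background on every array. The other probe of klf7b sits at −0.02 beside its 2 called probes.

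Among the members that limit axon growth, klf4 is known in mammals as a pluripotency factor whose protein binds Stat3 in retinal ganglion cells. Its brightest probe, A_15_P384005, read 6.40, 6.23, 6.02 and 5.44 in the control pools and 6.22, 5.81, 5.65 and 5.89 in the crush pools, so that the crush pools lay inside the control range. This gave a log2 fold change of −0.13 (SE 0.22, 95% interval −0.63 to 0.36, adjusted p = 0.782 from limma). It moved between −0.01 without control pool 1 and −0.33 without control pool 4, and was −0.38 with the processed signal. A second probe of nearly the same signal, A_15_P668111, read 6.18, 6.21, 6.03 and 5.75 against 5.53, 5.78, 5.39 and 5.70. Only crush pool 2 reached the range of the control pools there, and the log2 fold change of −0.44 (SE 0.14) had an unadjusted p of 0.0128 in limma and an adjusted p of 0.138. This second probe passed in no alternative, at −0.24 to −0.66. The lowest adjusted p was 0.0573, with median scaling (−0.56), followed by 0.0639 without control pool 4 (−0.54). The dimmest probe, A_15_P346495, gave −0.19 (adjusted p = 0.576) and was well above background on 1 control and 1 crush array.

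The gene klf9 encodes a factor that thyroid hormone and glucocorticoids induce in vertebrate neurons, and in rodents it restrains axon growth in maturing retinal ganglion cells. It varied more among the control pools than between the groups. Its brightest probe, A_15_P735206, read 7.75, 8.87, 9.09 and 7.999 in the control pools and 7.96, 8.35, 8.56 and 8.13 in the crush pools. Control pools 2 and 3 were highest and control pool 1 was lowest, so that all crush pools fell within the control range. The mean was 8.43 ± 0.65 in control and 8.25 ± 0.26 in crush pools (log2 signal, SD, n = 4 each), a log2 fold change of −0.18 (95% interval −0.87 to 0.51, adjusted p = 0.79 from limma). The other probe, A_15_P146191, had the same order of the control pools, 7.52, 8.84, 9.10 and 8.02, and gave −0.36 (adjusted p = 0.598).

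A close relative of Klf9 that also represses through the corepressor Sin3A is Klf13. On its brightest probe, A_15_P208476, klf13 read 10.85, 11.04, 11.23 and 9.89 in the control pools and 10.38, 10.09, 10.80 and 10.44 in the crush pools. Control pool 4 was below every other pool, and the remaining control pools were above every crush pool. With all pools the log2 fold change was −0.32 (SE 0.29, adjusted p = 0.579 from limma), and it moved with the pools kept, from −0.61 (adjusted p = 0.107) without control pool 4 to −0.23 without control pool 2, −0.21 without crush pool 2 and −0.16 (adjusted p = 0.828) without control pool 3. Control pool 4 was also the lowest on the other probes, at 9.01 on A_15_P666196 and 8.55 on A_15_P278306, whose log2 fold changes were −0.19 and −0.16.

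Set against these growth-limiting members, the change of klf6a was larger on the same arrays. The difference in log2 fold change was 2.37 (SE 0.21) from klf4 and 2.42 (SE 0.37) from klf9, as well as 2.54 (SE 0.14) from klf7a and 1.59 (SE 0.15) from klf7b. Each of these 4 pairs separated the groups without overlap (exact two-sided permutation p = 0.0286, 0.0343 after adjustment over the 6 pairs). The 4 differences share the values of klf6a and are not independent of each other or of the rise of klf6a given above.

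The paralogs klf2a and klf2b are counterparts of mammalian Klf2, which blood flow induces in endothelial cells. On its brightest probe, A_15_P108040, klf2a read 8.91, 10.17, 8.12 and 7.93 in the control pools and 8.04, 7.77, 8.004 and 7.92 in the crush pools. The crush pools lay within 0.28 log2 units of each other, whereas the control pools spanned 2.25, with pool 2 on top. Over all pools klf2a had a log2 fold change of −0.85 (SE 0.44, 95% interval −1.84 to 0.15, adjusted p = 0.329 from limma). It moved from −0.38 (adjusted p = 0.427) without control pool 2 to −1.13 (adjusted p = 0.172) without control pool 4. On the dim probe A_15_P218661 only 1 control array was well above background, and no fold is given for it.

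By contrast klf2b varied least of the 10 genes. Its brightest probe, A_15_P439835, read 13.87, 13.75, 13.95 and 13.83 in the control pools and 13.72, 13.75, 13.66 and 13.74 in the crush pools. The groups overlapped only between control pool 2 and crush pool 2. For klf2b the log2 fold change was −0.13 (SE 0.09, 95% interval −0.34 to 0.08, adjusted p = 0.48 from limma), and on the probe A_15_P660106 no array was well above background. The difference between the changes of klf2a and klf2b was −0.72 (SE 0.55), and the groups overlapped (exact two-sided permutation p = 0.343, 0.343 after adjustment over the 6 pairs). It was −0.78 with median scaling (adjusted permutation p = 0.286). With the processed signal it was −0.91 and with the mean of the probes, dim ones included, −0.81 (adjusted permutation p = 0.0857 in each).

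Mammalian Klf3 represses its targets through the corepressor CtBP. On its brightest probe, A_15_P200136, klf3 read 7.25, 9.13, 7.87 and 7.22 in the control pools and 6.89, 7.39, 7.21 and 7.52 in the crush pools. As for klf2a, control pool 2 was the highest by a wide margin, and the groups overlapped. The log2 fold change was −0.62 (SE 0.40, adjusted p = 0.434 from limma) with all pools. It moved from −0.20 (adjusted p = 0.671) without control pool 2 to −0.83 (adjusted p = 0.28) without control pool 4. On the other probe, A_15_P102825, control pool 2 read 7.31 and the remaining pools 5.08 to 5.86, and gave −0.44 in log2 fold change (adjusted p = 0.613).

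The array of control pool 2, high for klf2a and klf3, stood apart from the others in several measures. It held 382 outlier spots against 6 to 21, and 84.0% of its spots were well above background against 72.5% to 77.8%. Of 11 measured endothelial genes 5 had their highest value there, as had 4 of 9 red blood cell genes, 4 of 8 rod genes and 5 of 7 pigment epithelium genes. The other cell type lists had fewer, with 0 of 9 bipolar, 0 of 7 myeloid, 1 of 10 ganglion cell and 1 of 9 cone genes. The same held for 1 of 10 amacrine and horizontal, 1 of 10 Muller glia and 1 of 8 lens genes. So it did for 1 of 8 oligodendrocyte, 2 of 11 skin and cornea and 2 of 10 skeletal muscle genes. The share over all genes was not computed. Chosen after their values were seen, egfl7 and fli1, made by endothelial cells, read 9.98 and 8.87 in control pool 2 and at most 7.83 and 7.90 in the other pools. The summed signal of the endothelial list was 12.8 on the log2 scale in control pool 2 and 12.3 to 12.6 in the other control pools, that of the red blood cell list 15.8 against 13.8 to 15.3, and that of the pigment epithelium list 17.0 against 14.6 to 16.1. The rod list summed to 20.2 in control pool 2, within the 20.1 to 20.3 of the other control pools. The part of these cells, and of the array itself, in the values of klf2a and klf3 was not tested.

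The last member, klf11a, corresponds to mammalian Klf11, which TGF-beta induces and which represses through Sin3A. Its probe, A_15_P161496, read 10.57, 10.19, 10.86 and 10.11 in the control pools and 10.13, 10.40, 10.34 and 10.68 in the crush pools. The groups overlapped over most of their range. The log2 fold change was −0.05 (SE 0.19, 95% interval −0.49 to 0.39, adjusted p = 0.922 from limma), and its sign changed when arrays were scaled to their medians (0.08).

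**Figure D3:**
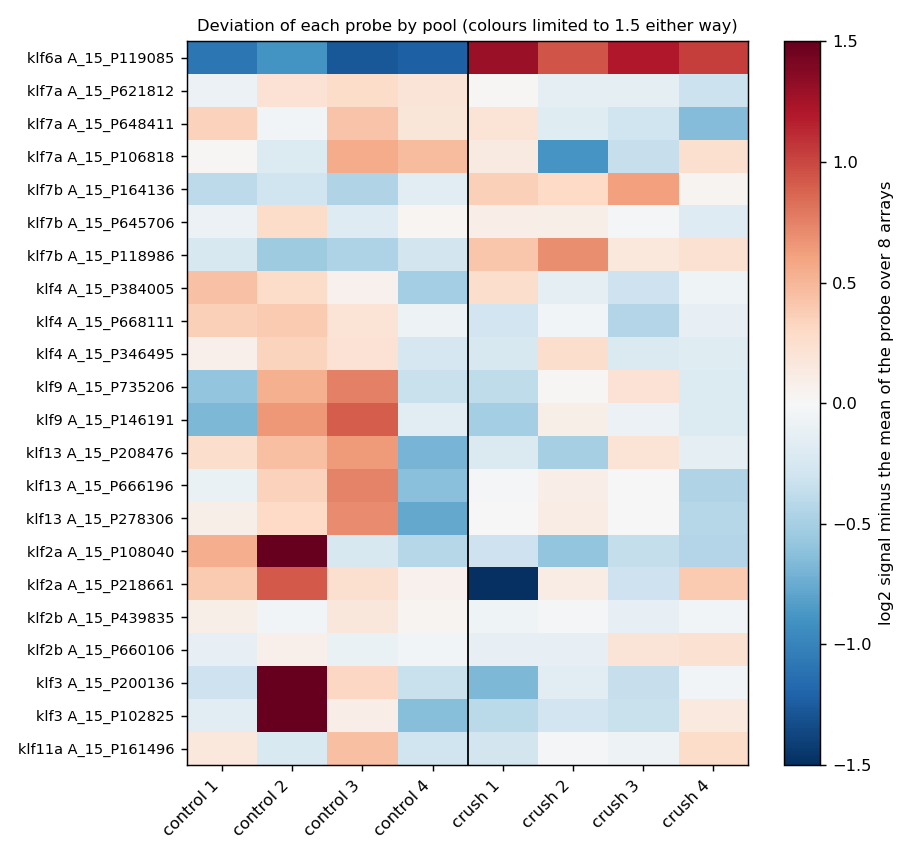
Deviation of each of the 22 probes (rows) from its own mean over the 8 arrays (columns, control pools left of the line, crush pools right), in log2 units with colours limited to 1.5 either way. The klf6a row separates the groups, the klf2a and klf3 rows are highest in control pool 2 (1.82 and 1.57 above the mean for their brightest probes), the klf9 rows in control pool 3, and the klf13 rows are lowest in control pool 4.

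The rest of the Kruppel-like and Sp family, whose Sp members share the same kind of zinc fingers, was read from a list of 27 symbols, of which 20 were measured by 38 probes. Of these 20 genes 1 was over-expressed and 1 under-expressed, where 3.02% and 1.19% of all genes with a symbol were. On 15 the brightest probe was well above background on at least 1 array of each group, and of these 7 were higher and 8 lower, with a median log2 fold change of −0.01. The over-expressed gene was sp8a, whose mammalian counterpart Sp8 acts in limb outgrowth and forebrain patterning. It read 4.41, 4.69, 4.85 and 4.41 in the control pools and 5.92, 5.68, 6.43 and 5.99 in the crush pools, without overlap, and was well above background on 1 control and 4 crush arrays. Its log2 fold change was 1.42 (SE 0.18, adjusted p = 0.00557 from limma). The size depended on the background correction, with 1.003 at a normexp offset of 16, 0.63 at 50 and 2.29 with the processed signal, and the call was kept in each (adjusted p = 0.00563, 0.00963 and 0.0392).

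The under-expressed gene was sp9, a relative of sp8a in limb and forebrain development. Its brightest probe read 6.21, 5.91, 6.03 and 6.26 in the control pools and 5.52, 5.62, 5.14 and 5.46 in the crush pools, a log2 fold change of −0.67 (SE 0.14, adjusted p = 0.0395 from limma). The groups did not overlap, but the call was lost when any 1 of the 8 pools was left out, with an adjusted p of 0.0556 to 0.0989. The brightest family genes that did not pass were sp1, a widely expressed GC-box factor, at −0.20 (adjusted p = 0.324), and klf15, a glucocorticoid-responsive factor in mammals, at −0.36 (adjusted p = 0.184). Singled out after its values were seen, zgc:153115, which RefSeq lists with the synonyms klf14 and klf16, was just outside the threshold at 0.69 (adjusted p = 0.0504), with no overlap between the groups on either of its 2 probes.

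**Figure D4:**
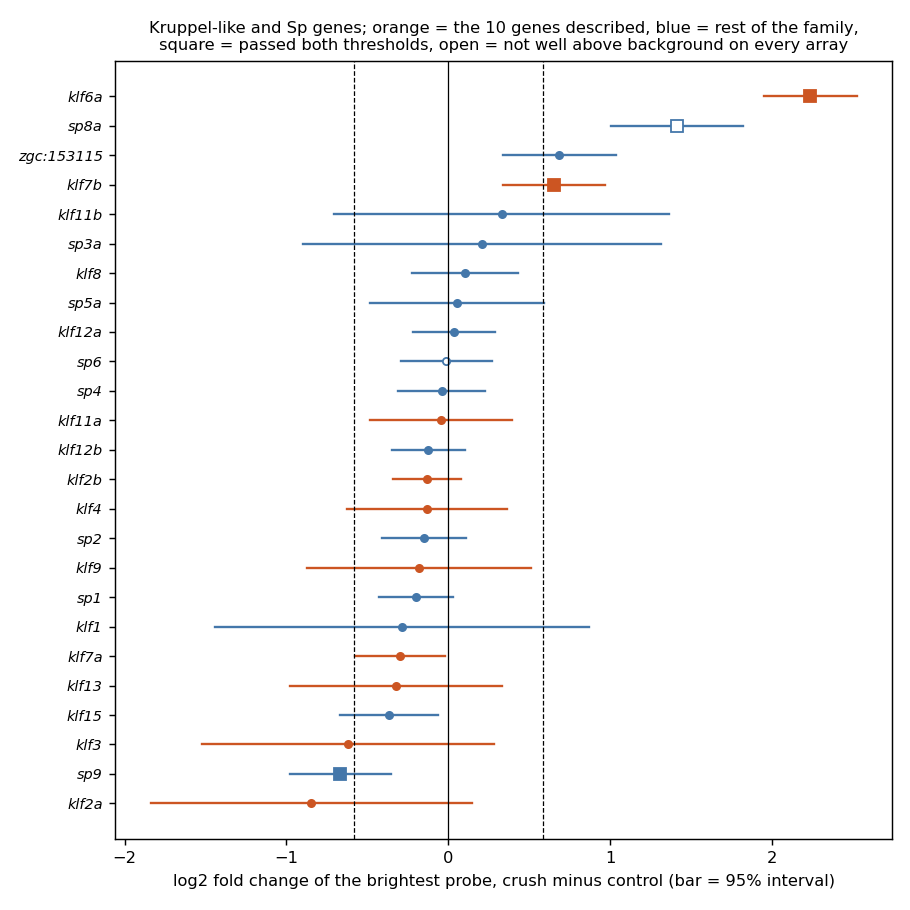
Log2 fold change, crush minus control (horizontal axis), of the brightest probe of each of the 10 genes described (orange) and the 15 other Kruppel-like and Sp genes well above background on at least 1 array of each group (blue), with 95% intervals from limma over 4 control and 4 crush pools. Dashed lines mark a 1.5-fold change and squares mark the genes whose brightest probe passed both thresholds, while open symbols mark probes not well above background on every array, sp8a among them. From 2.24 for klf6a and 1.42 for sp8a the changes run to −0.67 for sp9 and −0.85 for klf2a, whose interval crosses 0.

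Of 12 listed corepressors that these factors recruit 9 were measured. None of the 9 passed in limma, where 4.19% of all genes with a symbol did. At an unadjusted p of 0.05 in limma, 1 was higher and 0 lower, against 10.1% and 9.35% of all probes. The brightest probes ranged from −0.14 to 0.28 in log2 fold change with a median of 0.12. The brightest of them were hdac1, a histone deacetylase of the Sin3 complex (0.28, adjusted p = 0.223 from limma), and hdac4, another histone deacetylase, at −0.06 (adjusted p = 0.854).

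Of 15 genes listed as targets or partners of Klf4, Klf6, Klf7 and Klf9 in mammals or in nerve growth, 11 were measured and 2 were over-expressed. Of all genes with a symbol 3.02% were. The growth-cone protein gene gap43 read 11.07, 9.98, 10.34 and 11.45 in the control pools and 15.64, 16.21, 16.13 and 15.21 in the crush pools. The groups lay far apart, and the log2 fold change was 5.09 (SE 0.35, adjusted p = 0.000685 from limma). The tubulin gene tuba1a, whose mammalian counterpart is active in growing neurons, had a log2 fold change of 0.67 (SE 0.13, adjusted p = 0.0308), and its call was lost in 6 of the 8 fits with 1 pool left out, the exceptions being control pool 4 and crush pool 1, with an adjusted p of up to 0.0984.

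Among the target genes that did not pass, the brightest were socs3a, an inhibitor of cytokine signalling through Stat3, at 0.86 (SE 0.29, adjusted p = 0.155), and cdkn1bb, a cell cycle inhibitor of the p27 type, at 0.18 (adjusted p = 0.364). Control pools 1 and 2 of socs3a read 12.69 and 13.30 and pools 3 and 4 read 11.87 and 12.02, and the highest of them lay among the crush pools, 13.18 to 13.50. Without control pool 2 the gene passed (1.14, adjusted p = 0.0425). Stat3, the partner of Klf4, is encoded by stat3, which gave 0.42 (SE 0.23, adjusted p = 0.362) and is named here after its value was seen.

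Hormone receptors and hormone-responsive genes, listed because klf9 responds to thyroid hormone and glucocorticoids, were measured for 10 of 13 symbols. None of the 10 passed in limma, where 4.19% of all genes with a symbol did. At an unadjusted p of 0.05 in limma, 3 were lower and 0 higher, against 9.35% and 10.1% of all probes. The brightest probes of 8 were lower and of 2 higher after crush, with a median log2 fold change of −0.29. The brightest were tsc22d3, a glucocorticoid-induced leucine zipper gene, at −0.33 (adjusted p = 0.114), and sgk1, a glucocorticoid-induced kinase gene, at −0.41 (adjusted p = 0.154).

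Cell type markers moved between the groups beside these genes. Of 10 measured retinal ganglion cell genes 6 were under-expressed (isl2b, nefmb, pou4f2, pou4f3, rbpms2a and rbpms2b) and 1, the neurofilament gene nefma, was over-expressed. Among all genes with a symbol 1.19% and 3.02% were. The summed signal of the ganglion cell list was 16.5 to 16.9 in control and 15.8 to 15.9 in crush pools on the log2 scale. The endothelial list had 1 under-expressed gene of 11, clec14a (−0.78, adjusted p = 0.0348 from limma). Its summed signal was 12.3 to 12.8 in control and 11.8 to 12.1 in crush pools. The brightest probes of 10 endothelial genes were lower and of 1 higher, with a median log2 fold change of −0.39. At an unadjusted p of 0.05 in limma, 3 endothelial genes were lower and 0 higher. Of 7 myeloid, 9 red blood cell and 11 skin and cornea genes none passed in limma. Over all probes 10.1% were higher and 9.35% lower at an unadjusted p of 0.05 in limma. At an unadjusted p of 0.05, 3 myeloid genes were higher, 3 red blood cell genes lower and 1 skin and cornea gene higher, with summed signals of 11.99 to 12.6, 13.8 to 15.8 and 13.6 to 14.2 in control and of 12.4 to 13.2, 13.8 to 15.2 and 13.7 to 14.4 in crush pools. The lens, skeletal muscle and remaining cell type lists were added here after their values were seen. Among lens genes, 8 of 8 were lower and none passed in limma, with 3 lower at an unadjusted p of 0.05. Their median log2 fold change was −1.17, with a summed signal of 12.2 to 14.2 in control and 11.6 to 12.5 in crush pools. Only 7 of the lens genes were well above background on at least 1 array of each group, and their median was −0.98. Of 10 skeletal muscle genes 8 were lower and none passed in limma, with 1 higher and 2 lower at an unadjusted p of 0.05 and a median of −0.62. On 8 of the muscle genes at least 1 array of each group was well above background, and of these 7 were lower. For 1 muscle gene no array was. No gene of the remaining cell type lists passed in limma. Lower were 9 of 10 amacrine and horizontal, 5 of 9 bipolar, 6 of 8 rod, 6 of 9 cone and 6 of 10 Muller glia genes. Of pigment epithelium genes 4 of 7 were lower, and of oligodendrocyte genes 2 of 8. Summed signals were 16.45 to 16.76 in control and 16.05 to 16.38 in crush pools for amacrine and horizontal genes. Bipolar genes summed to 16.24 to 16.54 and 15.78 to 16.19. In the other remaining lists the groups overlapped. The brightest probe of every measured gene of the first 5 lists was well above background on at least 1 array. Their part in the changes of klf6a, klf7b and the other members was not tested.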

How the data were processed

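Each of the 8 RNA pools was read on a one-colour Agilent array. The scanner files were deposited as read by Feature Extraction 10.7.3.1 and give the median fluorescence intensity of each spot and of its local background, with no normalisation between arrays. They also hold a processed signal, an intensity already corrected by the scanner software before the authors deposited it. The authors deposited log2 values as well, and these were recovered within 0.0118 by normexp in limma with the offset set to 16, followed by quantile normalisation over all spots.

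Here the median intensities were corrected by normexp with the offset set to 0, outlier spots were set to missing, control spots left out, arrays quantile normalised and taken to log2, and spots of a probe averaged. Of 43603 probes, 43601 had at least 2 values in each group and entered a fit without covariates by lmFit, then eBayes (limma 3.58.1, R 4.3.3). The kind of correction (normexp) and normalisation (quantile), the test and the thresholds follow the methods of the study, but the offset and the spots left out differ from those behind the deposited log2 values. Single values were tested by exact two-sided permutation over the 70 relabellings. Pools were labelled as separate samples with 4 fish in each. Precision is limited by the number of arrays.

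Symbols came from RefSeq accessions of the array design, matched without versions to zebrafish genes of assembly GRCz12tu, for 25597 probes (58.7%). Coordinates of that assembly were not used, and sequences of probes, proteins and promoters were not analysed here. The members, lists and pairs compared were chosen with earlier results of these data known. Named genes were the 10 members with every probe, the genes of the 4 related lists that passed and the brightest 2 of each that did not, and the passing genes of 5 cell type lists. Others are said to have been chosen afterwards. A summed signal of a list is the log2 of the summed signals of the brightest probe of each gene.

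Alternatives were normexp offsets of 16 and 50, the deposited log2 values, median scaling, the processed signal scaled to the 75th percentile, a filter on dim probes, outlier spots kept, each pool left out, the replicate number as a block and, per gene, the brightest probe or the mean of probes. Running them on the corepressor, target and hormone lists, and on sp8a, and the mean of probes on single fold changes, was decided after seeing the data. Python 3.11.15 with matplotlib 3.10.9, scipy 1.17.1, numpy 2.4.6 and pandas 2.3.3 made the tables and figures.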

Additional observations from a re-analysis of the deposited data

Results flagged for a closer look

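In 142 sets of 4 pools (every probe of the 10 members and the brightest probe of each other Kruppel-like, Sp, corepressor, target and hormone gene, in each group with no missing value), the gap between an extreme pool and its nearest neighbour, divided by the range, was above Dixon's critical value for 4 samples in 6, or 4.23%. Chance alone gives about 1 set in 20. Only 1 concerned a member, the dim klf4 probe A_15_P346495, on which crush pool 2 was highest at 5.08 with the next at 4.64. The others were klf12a with crush pool 3 highest at 9.70 (next 9.60), klf15 with control pool 1 lowest at 11.24 (next 11.41), zgc:153115 with control pool 1 lowest at 6.91 (next 7.29), sp3a with control pool 4 lowest at 6.61 (next 8.35), and socs3b with crush pool 4 highest at 12.93 (next 12.06). The high values of klf2a and klf3 in control pool 2 did not reach the critical value.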

How the results depend on the processing

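The over-expression of klf6a held in every alternative, and no member was under-expressed in any. The number of over-expressed members was 1 with the processed signal, with the replicate block and with the mean of probes, and 1 to 2 with 1 pool left out, since klf7b dropped out. Its log2 fold change was 0.64 (adjusted p = 0.0534 from limma) with the processed signal, 0.65 (0.142) with the block, 0.46 (0.0374) with the mean of probes and 0.56 to 0.75 with 1 pool left out. The signs of small changes turned for klf9 (0.043 without control pool 3, −0.40 to 0.043 over the pools left out) and klf11a (0.080 with median scaling, 0.097 without control pool 3, 0.040 without crush pool 1, −0.15 to 0.097 over the pools left out).

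Over-expressed genes of the rest of the family were 2, with zgc:153115 added, at an offset of 16, in the deposited values, with median scaling and among probes well above background only. Under-expressed ones were 0, without sp9, at offsets of 16 and 50, in the deposited values, with the block and with any pool left out (0 to 0). Targets over-expressed were 1 with the block and 1 to 2 with 1 pool left out (socs3a in place of tuba1a without control pool 2), and 1 target, l1cama, was under-expressed with the processed signal. The cause of these changes was not tested. The corepressor and hormone lists stayed at 0 in both directions and the 6 pair differences kept their call with median scaling, the processed signal and the mean of probes, the 3 settings run for them.

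Probes passing over the whole array numbered 1201, against 909 at an offset of 50, 1458 among probes well above background, 2380 with median scaling (1176 higher), 1566 with the processed signal (700 higher, with a median log2 fold change of −0.12 over all probes), 479 to 1534 with 1 pool left out and 482 with the replicate block. In the main setting 825 were higher. The deviations of control and crush pools of the same number from their group means correlated at 0.01, −0.12, 0.02 and 0.18. Control pools 1, 2, 3 and 4 correlated most with crush pools 2, 4, 2 and 4. Such values cannot show whether pools of the same number were handled together, and the block is given as a check. Signal over background limits the 6 member probes that were not well above background on every array, and fold changes there depend on the background correction.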

Other observations

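The spread of klf9 among the control pools was set beside the 10 measured hormone genes over the 8 arrays, a comparison chosen after the values of klf9 were seen. The closest was fkbp5, a glucocorticoid-induced chaperone gene. Its brightest probe read 10.17, 12.82, 12.60 and 11.39 in the control pools and 11.81, 12.50, 12.91 and 11.93 in the crush pools and did not pass in limma (0.54, adjusted p = 0.639). The other fkbp5 probe gave −0.07 (adjusted p = 0.953). Between the brightest probes of klf9 and fkbp5 Pearson's r was 0.82 (exact permutation p = 0.0105, 0.105 after adjustment over the 10 genes) and Spearman's rho 0.88 (exact permutation p = 0.00724, adjusted 0.0724). With each group centred on its mean r was 0.95 (exact permutation p within groups 0.00868, adjusted 0.0868). Without control pools 2 and 3, the farthest from the median of klf9, Pearson's r of the uncentred values was 0.94. Over the 4 combinations of the 2 probes of each gene r was 0.71 to 0.82. With groups centred, the other fkbp5 probe gave only 0.77 and 0.74 with the 2 klf9 probes (exact permutation p within groups 0.102 and 0.156). For dio2, another of the 10 genes, Pearson's r with klf9 was 0.71 (exact permutation p = 0.0482, adjusted 0.241). With groups centred it was 0.73 (exact permutation p within groups 0.0226, adjusted 0.113). For the rest r of the uncentred values was 0.58 for nr3c2, 0.22 for thrb, 0.19 for thraa and 0.12 for nr3c1. The other glucocorticoid-responsive genes gave 0.11 for sgk1, −0.04 for tsc22d3, −0.08 for per1b and −0.10 for per1a. Without control pools 2 and 3, r of the uncentred values was 0.81 for dio2 and 0.11 for nr3c2. For the remaining genes it ran from −0.20 for thrb to −0.79 for per1a. No relation of the 10 passed the adjustment, and with 4 pools a group no value within a single group is given.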
